A study of Mus musculus with 9 samples.

Results

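The genes described here encode the subunits of integrins and of laminins in Lepr-lineage stromal cells sorted from the fibrous tissue around a mouse tibial implant. They were chosen by symbol alone and number 35 of the 27179 genes in the deposited matrix: 16 integrin α genes, 8 integrin β genes and 11 laminin chain genes. The rule itself used no measured value, but the members were chosen with earlier results of these data known. Of the 35, 32 passed the filter on low values (10 or more normalized counts in 4 or more libraries), and the other 3 (Itgad, Itgax and Itgb6) are given by their values. Integrin-like names with bp or l in them were left out by the rule, which also removed the leukocyte α gene Itgal and the β2-like gene Itgb2l. They are mentioned where their relatives are described.

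The 4 control libraries came from littermates with Cre alone, of genotype Lepr-CreERT;Tdtomato, and the 5 conditional knockout (cKO) libraries carried Lepr-CreERT;Tdtomato;Grem1fl/fl. Both groups thus held the tamoxifen-inducible Cre driven by Lepr and the tdTomato reporter, received tamoxifen, and underwent the same tibial implantation, with tissue taken 2 weeks later. Deletion is limited to cells in which the Lepr-driven Cre was active. Gremlin 1, the product of Grem1, binds bone morphogenetic proteins outside the cell and blocks them. Sorting kept tdTomato-positive cells that lacked blood lineage markers, and their polyadenylated RNA was sequenced. Whether every library is a separate animal is not stated, so p-values measure only the spread between these libraries, which may be technical. RNA of other cell types was present in amounts that differed between libraries, as given below. In bulk RNA, fewer cells of a type and less RNA per cell cannot be told apart.

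Integrins are heterodimers of an α and a β subunit that span the cell membrane and tie the extracellular matrix to the actin cytoskeleton. The α subunit largely sets the ligand: some bind collagen, some laminin, some the arginine-glycine-aspartate motif of fibronectin and related proteins, and some counter-receptors on other cells. Laminins are cross-shaped trimers of an α, a β and a γ chain and are the main adhesive proteins of basement membranes. In muscle and peripheral nerve the α2 chain is the main laminin α chain, whereas the α4 chain is typical of vessel walls and other mesenchymal matrix.

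Recovered reads numbered 44.8 to 53.4 M in controls, 76.3 to 87.2 M in cKO replicates 1 to 4 and 43.5 M in cKO replicate 5. Stromal markers (Lepr, Cxcl12, Pdgfra, Col1a1, Lum, Dcn and others) summed to 4.18 to 5.4 M across controls and 3.65 to 8.88 M across knockouts, in normalized counts. Col1a1 and Col1a2 supplied most of these sums, which therefore say little about the other markers. Of the 11 markers 1 was called higher, Pdgfra (2.12-fold, limma adjusted p = 0.0229), and 0 lower. Its groups did not overlap, nor did those of Dcn (higher) and Pdgfrb (lower). Lepr, the Cre driver, was uneven in both groups, at 935 to 40594 across controls and 1347 to 15785 across knockouts, with control replicate 4 and cKO replicate 5 the lowest. Grem1 itself stood at 356 to 736 across controls and 46.4 to 133 across knockouts (limma log2 fold change -2.72 with SE 0.43, adjusted p = 0.00781). The exact permutation p, two-sided, was 0.00794, the smallest these group sizes allow. cKO replicate 5 lay nearer to the control mean than to the mean of the other 4 knockouts for 62.8% of the 15832 genes tested, and for 21 of the 32 members.

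Of the 32 members tested, 1 was higher and 3 were lower in the knockout (limma on log2(normalized count + 1), Benjamini-Hochberg adjusted p under 0.05). That is 12.5% of them, against 7.48% of all genes tested. By direction, 4.61% of all genes were higher and 2.87% lower. Lama2 rose, and Lama1, Itga1 and Itga5 fell. The groups did not overlap for 6 members, namely Lama2 and Itgb8 (higher) and Lama1, Itga1, Itga5 and Itga10 (lower), where 11.4% of all genes tested had groups that did not overlap (6.82% higher and 4.6% lower). With edgeR 2 members passed, Lama2 and Itga1, against 4.96% of all genes, and with DESeq2 11 passed, against 16.1%. The median log2 fold change over the 32 members was -0.44, and over all genes tested it was -0.0039, with 21 members below 0 and 11 above. At an unadjusted p under 0.05 there were 12 members, against 26.9% of all genes.

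The number of calls was higher without cKO replicate 5. Without it, 3 members were higher and 8 lower, 34.4% of the 32, while 22.5% of all genes passed (12.4% higher and 10.1% lower). The 4 original calls were kept, and Lamb2, Lamc3, Lama4, Lamb1, Itga4, Itga10 and Itgb1 were added. Without cKO replicate 5 every knockout library was deeper than every control, so genotype and depth cannot be told apart in that setting. Leaving out any other single library lost Itga5, and leaving out control replicate 1, 2 or 3 lost Lama1 too. Without control replicates 1 and 3 together only Lama2 kept its call, and 2.13% of all genes passed. At like depth, with cKO replicate 5 as the only knockout library against the 4 controls, 0 of the 32 passed limma (0.524% of all genes did) and 8 had an unadjusted p under 0.05. EdgeR and DESeq2 were not run there, and the spread there comes from the controls alone. In the authors' deposited table, 13 of the 33 members with an adjusted p were called (under 0.05), against 17.1% of all genes with one. Of these 13 members 6 were higher and 7 lower. Higher were Lama2, Lamb2, Lamc3, Itgb8, Itgax and Itgb6. Lower were Lama1, Lama5, Lamb1, Itga1, Itga5, Itga10 and Itgb1. Of these, Itgax and Itgb6 were left out of the main fit here by the filter. In the limma setting without that filter, which tested all 35 members, neither was called.

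**Figure D1:**
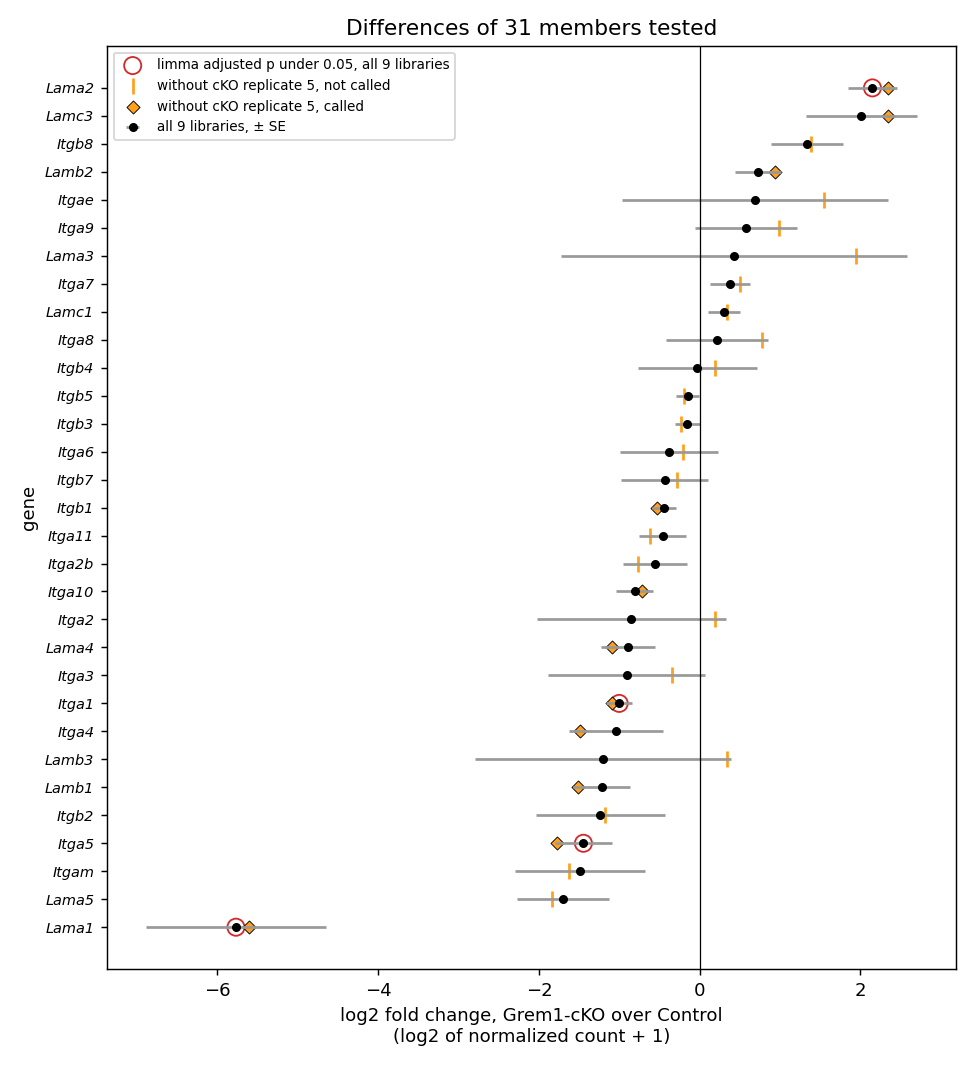
Log2 fold change of cKO over control libraries (horizontal axis, log2 of normalized count + 1) for 31 of the 32 members tested (vertical axis), with SE bars and red rings at the 4 that passed with all 9 libraries, and orange marks for the values without cKO replicate 5. The 11 filled diamonds are the members that passed without that library, and Lama1 at -5.77 and Lama2 at 2.15 lie farthest from 0.

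Among the laminin α chains, Lama2, whose chain joins laminins of muscle fibres, Schwann cells and fibroblasts, was higher in every knockout library. Lama2 had 2194, 1957, 1109 and 2012 normalized counts across control replicates 1 to 4, and 10893, 5923, 8179.8, 12014 and 4587 across cKO replicates 1 to 5. The highest control lay below the lowest knockout, and cKO replicate 5 was the lowest of the knockouts. The group values were 1818 ± 484 (SD, n = 4) in controls, and 8319 ± 3161 (SD, n = 5) in the knockout, a 4.44-fold difference (limma log2 fold change 2.15 with SE 0.31, adjusted p = 0.00527). Its adjusted p ran from 1.03e-09 to 0.441 over the alternatives, and it passed in all 9 settings that left out 1 library (0.000823 to 0.0168). The call was lost without control replicates 1 and 3 and cKO replicate 2 together (limma adjusted p = 0.0669) and with cKO replicate 5 as the only knockout.

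Lama1, the α chain of early embryonic basement membranes, was low in controls and nearly absent from the knockout. Lama1 had 75.7, 71.7, 396 and 22.4 normalized counts across control replicates 1 to 4, and 0, 8.08, 0, 0 and 0 across cKO replicates 1 to 5. Knockout reads came from replicate 2 alone, 12 in number, so the ratio of means was 87.6, while the fold fitted on the log2 scale was 54.6 (limma log2 fold change -5.77 with SE 1.12, adjusted p = 0.0184). The fitted value moved with the pseudocount, from -6.57 at 0.5 to -3.91 at 5. Control replicate 3 supplied most of the control signal, and without it the ratio was 35. Without cKO replicate 2 the control mean was at least 54.5-fold higher than the level of 3 reads per knockout library, taken as the floor. The adjusted p ran from 0.00238 to 0.342 over the alternatives, and the call was lost without control replicate 1, 2 or 3 (0.053, 0.0531 and 0.0572).

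Lama4, the α chain of vessel walls and mesenchyme, was the most abundant laminin α gene per kilobase of exon. Lama4 had 26168, 17348, 24192 and 21395 normalized counts across control replicates 1 to 4, and 15321, 5479.8, 9906, 13565 and 20816 across cKO replicates 1 to 5. The first 4 knockouts lay below all controls, and cKO replicate 5 lay among them. With all libraries it did not pass (limma log2 fold change -0.89 with SE 0.33, adjusted p = 0.12). Without cKO replicate 5 the log2 fold change was -1.09 with a limma adjusted p of 0.0322 (adjusted p from 0.0166 to 0.93 over the alternatives).

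Lama5, the α chain of mature epithelial and endothelial basement membranes, had 3356, 689.7, 3549 and 1325 normalized counts across control replicates 1 to 4, and 821, 318, 966, 262 and 821 across cKO replicates 1 to 5. It was high in control replicates 1 and 3, and control replicate 2 lay within the knockout range (limma log2 fold change -1.70 with SE 0.57, adjusted p = 0.0919). Lama5 was called lower by DESeq2 (adjusted p = 0.0098) and by limma with the replicate block (0.00836), but not by edgeR (0.0806). In the authors' deposited table its adjusted p was 0.0108. Without control replicates 1 and 3 its log2 fold change was -0.78. Summed endothelial markers were 282979, 15913, 348852 and 21793 in control replicates 1 to 4 and 9740.0 to 19452 in the knockouts, so replicates 1 and 3 were the high ones there as well. Of the 16 endothelial markers 3 passed as lower, and none stood at 0 throughout. Their part in the Lama5 values was not tested. Lama3, an α chain of epithelial anchoring laminin, ranged from 0 to 398 across controls and 0 to 637 across knockouts and did not pass (limma log2 fold change 0.43 with SE 2.15, adjusted p = 0.918).

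**Figure D2:**
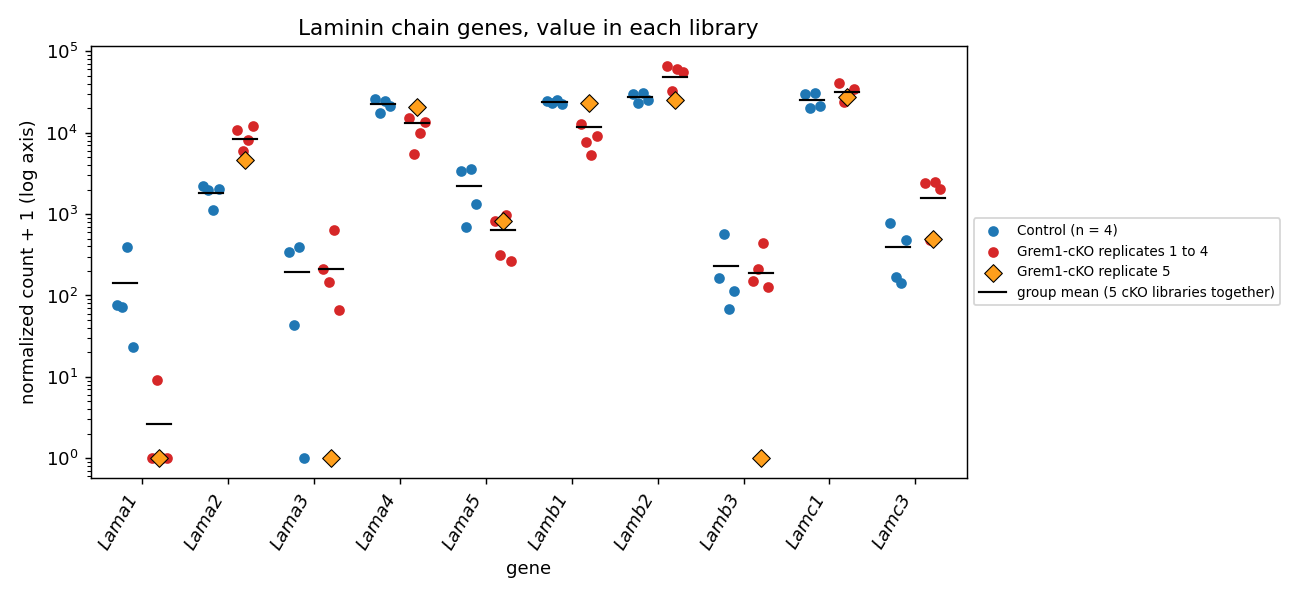
Normalized count + 1 (vertical log axis) of 10 laminin chain genes in each library: blue points are the 4 controls, red points cKO replicates 1 to 4, orange diamonds cKO replicate 5, and black lines the group means. The diamond of Lama2 stands above all controls, whereas those of Lamb1, Lamb2 and Lama4 stand level with them.

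The pair of widely expressed laminin β chains differed in opposite directions in 4 of the 5 knockouts. Lamb1 encodes the β1 chain, which is used in most basement membranes, and Lamb2 the β2 chain, which is concentrated at the neuromuscular junction, in the glomerulus and in vessel walls. Lamb1 had 24509, 22885, 25256 and 22832 normalized counts across control replicates 1 to 4, and 12973, 7687, 5262, 9206 and 23299.5 across cKO replicates 1 to 5. Lamb2 had 30274, 23144, 30689.7 and 25412 normalized counts across control replicates 1 to 4, and 66854, 32239, 60629, 55484 and 25271 across cKO replicates 1 to 5. For both genes cKO replicates 1 to 4 lay wholly outside the control range, and cKO replicate 5 lay within it. With all libraries neither passed limma, while DESeq2 and limma with library quality weights called both. Lamb1 had a limma log2 fold change -1.22 with SE 0.35, adjusted p = 0.0625. Lamb2 had a limma log2 fold change 0.72 with SE 0.29, adjusted p = 0.138. Without cKO replicate 5 the log2 fold change was -1.52 with a limma adjusted p of 0.00278 for Lamb1 and 0.93 with a limma adjusted p of 0.0198 for Lamb2. Over the alternatives the adjusted p ran from 0.00278 to 0.938 and from 0.00859 to 0.881. In the authors' deposited table both were called, with adjusted p of 0.0422 and 0.0406. Lamb3, the β chain of epithelial laminin, ranged from 66.8 to 571 across controls and 0 to 443 across knockouts (limma log2 fold change -1.20 with SE 1.60, adjusted p = 0.663).

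Within a library the ratio of the β chains does not depend on scaling. Per kilobase of exon, Lamb2 over Lamb1 was 2.01, 1.65, 1.98 and 1.81 across control replicates 1 to 4, and 8.4, 6.84, 18.8, 9.83 and 1.77 across cKO replicates 1 to 5. Controls and cKO replicate 5 thus formed a narrow range, and the other 4 knockouts lay above it, at 6.84 or more. The share of Lamb1 among the 3 β chain genes, per kilobase, was 33.1, 37.2, 33.5 and 35.4% across control replicates 1 to 4, and 10.6, 12.7, 5.02, 9.22 and 36.1% across cKO replicates 1 to 5. Among the 5 α chain genes the share of Lama2 was 5.09, 7.35, 2.76 and 6.11% across control replicates 1 to 4, and 32.9, 42.2, 34.2, 38.9 and 13.5% across cKO replicates 1 to 5. Here cKO replicate 5 lay between the controls and the other knockouts. Lama4 made up 85% ± 3.65 (SD, n = 4) of α chain signal in controls and 62.8% ± 11.9 (SD, n = 5) in cKO libraries. These shares restate the single-gene values and were not tested.

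**Figure D3:**
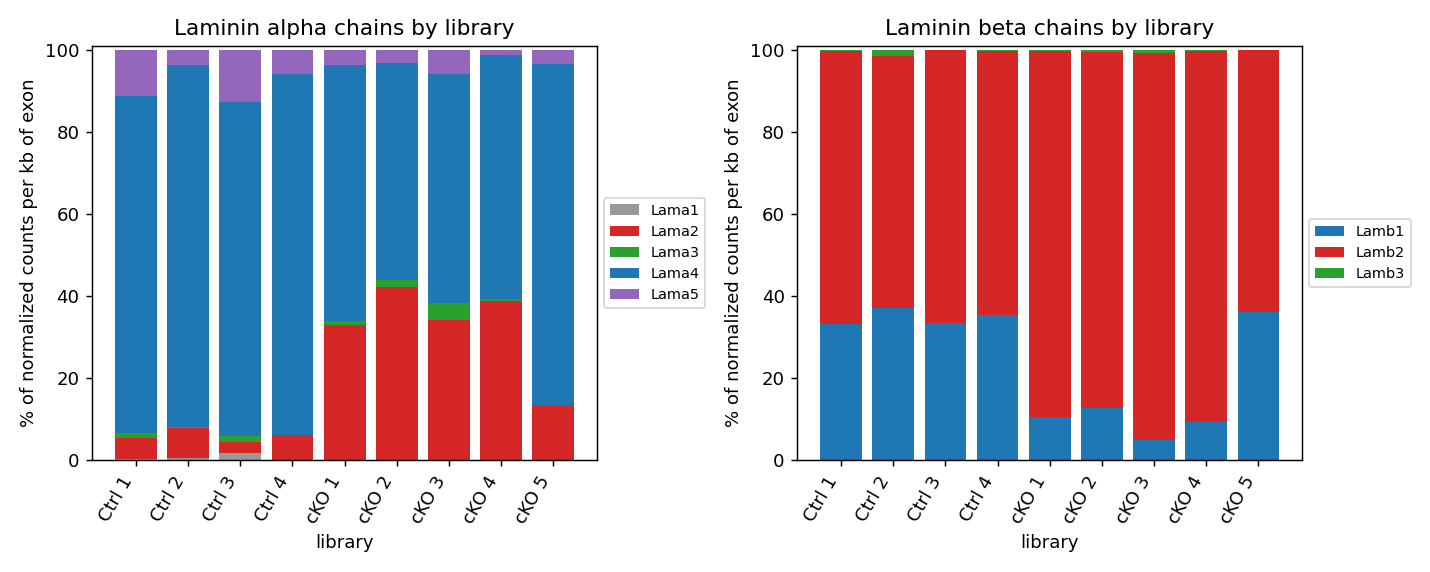
Share of each laminin α chain gene (left) and β chain gene (right) in the normalized counts per kilobase of exon of its chain type (vertical axes, %), for the 9 libraries (horizontal axes). Lamb1 takes 33.1% to 37.2% of the β signal in controls, 36.1% in cKO replicate 5 and 5.02% to 12.7% in the other knockouts.

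Of the γ chains, Lamc1, which joins most laminins and was by far the most abundant, had 29779.5, 20406, 30917 and 21093 normalized counts across control replicates 1 to 4, and 41002, 23789, 30199, 34918 and 27815 across cKO replicates 1 to 5. The groups overlapped and the difference did not pass (limma log2 fold change 0.30 with SE 0.20, adjusted p = 0.344). Lamc3 had 779.6, 168, 142 and 481 normalized counts across control replicates 1 to 4, and 2393, 484, 2503, 2061 and 497 across cKO replicates 1 to 5. Lamc3 encodes the γ3 chain, a minor chain described in nerve, testis and the vasculature. Knockout replicates 1, 3 and 4 had the highest values and replicates 2 and 5 lay within the control range, and the difference did not pass (limma log2 fold change 2.01 with SE 0.69, adjusted p = 0.098, adjusted p from 0.0131 to 0.86 over the alternatives).

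Lama2 and Lamb2 chains belong to laminins around muscle fibres and Schwann cells, and most markers listed for both cell types were higher in the knockout libraries. All 17 skeletal muscle markers passed as higher, with sums of 4264, 6197, 3320.4 and 6693 normalized counts across control replicates 1 to 4, and 495377, 280054, 110249, 767096 and 96223 across cKO replicates 1 to 5. Of 12 Schwann cell markers 7 passed as higher, with sums of 30619, 28269, 32068 and 23697 and 138260.0, 113461, 75774, 135594 and 60224 in the same order. Pmp22 supplied most of each Schwann sum (19638 to 21768 across controls and 39765 to 92837 across knockouts). The Schwann sums therefore say little about the other markers. S100b and Ngfr had log2 fold changes below 0 (-0.28 and -0.31) and did not pass (limma adjusted p = 0.51 and 0.727). The sums of cKO replicate 5 were the lowest of the knockouts on both lists but above every control. Cartilage markers were lower, 9 of 13 past the test, with sums of 2.01 to 4.79 M across controls and 0.165 to 1.29 M across knockouts, and cKO replicate 5 was again nearest to the controls. The part of muscle, nerve or cartilage RNA in the laminin values was not tested.

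Promoter sequences are shown for 5 members on which these results turn: Lama2 and Lamb2, higher in cKO replicates 1 to 4, and Lamb1, Itga5 and Itga1, lower there. Each is 300 bases long (250 before and 50 after a transcription start), 5′ to 3′, from RefSeq on GRCm38.p6, the coordinates' build. Capitals mark CAGAC or its reverse complement GTCTG, the core bound by SMAD proteins, and GGCGCC, a GC-rich SMAD motif that is its own reverse complement. No matches overlapped.
Lama2, chr10:27616893-27617192, minus strand: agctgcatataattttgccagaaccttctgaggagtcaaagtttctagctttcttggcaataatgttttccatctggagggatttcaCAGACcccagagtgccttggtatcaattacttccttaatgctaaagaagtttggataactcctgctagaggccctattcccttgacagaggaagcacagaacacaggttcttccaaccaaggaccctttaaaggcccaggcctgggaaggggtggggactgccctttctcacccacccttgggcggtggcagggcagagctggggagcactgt
Lamb2, chr9:108479612-108479911, plus strand: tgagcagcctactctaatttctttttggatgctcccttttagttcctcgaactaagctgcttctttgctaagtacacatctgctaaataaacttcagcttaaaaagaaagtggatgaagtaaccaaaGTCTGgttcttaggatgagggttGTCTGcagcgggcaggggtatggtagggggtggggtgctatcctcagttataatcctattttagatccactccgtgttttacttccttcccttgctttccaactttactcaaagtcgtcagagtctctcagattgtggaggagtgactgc
Lamb1, chr12:31265043-31265342, plus strand: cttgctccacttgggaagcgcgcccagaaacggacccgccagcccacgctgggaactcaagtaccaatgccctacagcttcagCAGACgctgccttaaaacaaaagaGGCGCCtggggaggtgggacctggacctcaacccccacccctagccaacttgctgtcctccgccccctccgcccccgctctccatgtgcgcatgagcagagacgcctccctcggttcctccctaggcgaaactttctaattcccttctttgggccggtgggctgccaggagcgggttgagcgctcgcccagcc
Itga5, chr15:103366742-103367041, minus strand: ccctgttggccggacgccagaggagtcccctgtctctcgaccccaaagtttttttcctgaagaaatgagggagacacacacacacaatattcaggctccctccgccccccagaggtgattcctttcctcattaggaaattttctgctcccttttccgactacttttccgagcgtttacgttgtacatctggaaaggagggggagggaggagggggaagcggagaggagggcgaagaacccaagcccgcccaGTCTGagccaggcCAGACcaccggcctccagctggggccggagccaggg
Itga1, chr13:115101915-115102214, minus strand: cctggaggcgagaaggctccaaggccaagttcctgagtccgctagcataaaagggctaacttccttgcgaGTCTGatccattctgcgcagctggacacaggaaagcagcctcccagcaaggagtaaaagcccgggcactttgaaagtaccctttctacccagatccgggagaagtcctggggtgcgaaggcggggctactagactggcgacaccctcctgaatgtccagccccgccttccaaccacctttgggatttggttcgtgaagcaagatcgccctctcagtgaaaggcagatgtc
CAGAC on either strand occurred in all 5, once or 2 times each, and in 49.6% of all 32851 promoters of this length. GGCGCC occurred once, in Lamb1, and in 11.9% of all promoters. Promoters were listed for 22 of the 35 members (25 starts), of which 18 held CAGAC and 3 held GGCGCC. The AP-1 motif TGANTCA and the TATA box letters TATAAA were searched on both strands too and were in none of the 5. They occurred in 7.81% and 13.6% of all promoters. A match describes these letters only.

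Among the collagen-binding integrin α genes, Itga1, whose product pairs with β1 and binds collagen IV and fibrillar collagens, was lower in every knockout library. Itga1 had 7258, 5923, 6024 and 8089 normalized counts across control replicates 1 to 4, and 3812, 3151, 2980.0, 2814 and 4373 across cKO replicates 1 to 5. The highest knockout, replicate 5, lay below the lowest control. The level was 6824 ± 1039 (SD, n = 4) in controls, and 3426 ± 651 (SD, n = 5) in the knockout, 2.00-fold lower (limma log2 fold change -1.001 with SE 0.16, adjusted p = 0.00816). It passed in all 9 settings that left out 1 library, with an adjusted p of 0.0012 to 0.0293. Without control replicates 1 and 3 together the log2 fold change was -1.03 with a limma adjusted p of 0.0562 (from 4.26e-06 to 0.495 over the alternatives). Pericyte and smooth muscle markers, of which 3 of 11 passed as lower, summed to 115699 to 170086 across controls and 73256 to 112340.0 across knockouts, and their part in the Itga1 values was not tested.

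Itga10 had 1849.7, 2501, 1806 and 1998 normalized counts across control replicates 1 to 4, and 800.1, 1494, 1515, 1277 and 878 across cKO replicates 1 to 5. Itga10 encodes the collagen receptor subunit of cartilage, and its groups did not overlap, with replicates 1 and 5 the lowest. The cartilage marker sums given above were lower as well. They were 363888, 323555, 165129, 447036 and 1291610 across cKO replicates 1 to 5, highest in replicate 5 and lowest in replicate 3. Their part in the Itga10 values was not tested. Itga10 narrowly missed the threshold (limma log2 fold change -0.81 with SE 0.23, adjusted p = 0.057, adjusted p from 0.0139 to 0.215 over the alternatives). Itga11, the fibroblast subunit for fibrillar collagen, was the most abundant of the 4 collagen-binding genes per kilobase, with 2660.0 ± 630.0 (SD, n = 4) normalized counts per kilobase in controls. It had 9305, 16402, 13134 and 15808 normalized counts across control replicates 1 to 4, and 11269.7, 7582, 5521, 12159.7 and 14958 across cKO replicates 1 to 5. The groups overlapped, with cKO replicates 2 and 3 below every control (limma log2 fold change -0.46 with SE 0.29, adjusted p = 0.338). Itga2, the subunit of platelets and epithelia, ranged from 112 to 749.9 across controls and 7.93 to 592 across knockouts (limma log2 fold change -0.85 with SE 1.18, adjusted p = 0.675).

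Itga5, which with β1 forms the main fibronectin receptor, was the most abundant α gene among the members per kilobase (6220.0 ± 879 in controls, SD, n = 4, and 2600.0 ± 1700.0 in cKO libraries, SD, n = 5). Itga5 had 29255, 37112, 28853 and 27571 normalized counts across control replicates 1 to 4, and 11925, 6102, 8571, 10258 and 27378 across cKO replicates 1 to 5. Knockouts 1 to 4 lay far below the controls, and replicate 5 fell short of the lowest control by a narrow margin. Itga5 was 2.73-fold lower (limma log2 fold change -1.45 with SE 0.36, adjusted p = 0.0408). That call was lost when any 1 library other than cKO replicate 5 was left out (limma adjusted p of 0.0654 to 0.101), and without cKO replicate 5 the log2 fold change was -1.77 with a limma adjusted p of 0.000742. The adjusted p ran from 0.000742 to 0.828 over the alternatives. Itga8, another subunit for arginine-glycine-aspartate ligands, had 1079.5, 437, 1647 and 1256 normalized counts across control replicates 1 to 4, and 1775, 1808, 2181, 1210.3 and 245 across cKO replicates 1 to 5, with cKO replicate 5 the lowest of all (limma log2 fold change 0.22 with SE 0.63, adjusted p = 0.852). Itga2b, the platelet fibrinogen receptor subunit, ranged from 364 to 1065 across controls and 251 to 615 across knockouts (limma log2 fold change -0.56 with SE 0.40, adjusted p = 0.407), with platelet and megakaryocyte markers at sums of 619 to 935 across controls and 139.7 to 766 across knockouts.

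The laminin-binding α genes did not pass. By limma 0 of 3 were called, 0 at an unadjusted p under 0.05, and 0 by edgeR or DESeq2. Itga7, the laminin receptor of muscle and of vessel walls, had 6057, 7427, 5402 and 10036 normalized counts across control replicates 1 to 4, and 9831, 10436, 13948, 6835 and 6475 across cKO replicates 1 to 5 (limma log2 fold change 0.38 with SE 0.25, adjusted p = 0.371). Its groups overlapped. The summed muscle markers given above did not overlap between groups, and their part in the Itga7 values was not tested. Itga6 had 9555, 1793, 9771 and 1867 normalized counts across control replicates 1 to 4, and 3513, 2286, 7760.1, 2856 and 1956 across cKO replicates 1 to 5. Itgb4 had 9016, 969.8, 8982 and 1459 normalized counts across control replicates 1 to 4, and 3665, 2031, 9058, 2841 and 1771 across cKO replicates 1 to 5. Itga6 and Itgb4, which pair in epithelia and Schwann cells, had high values in the same 3 libraries: control replicates 1 and 3 and cKO replicate 3. In control replicates 1 and 3 the endothelial sums given above were high. In cKO replicate 3 the epithelial and keratinocyte markers summed to 27692, against 339 to 449 in controls and 316 to 3490.4 in the other knockouts. Of the 8 epithelial markers 5 were tested, 0 passed limma (1 at an unadjusted p under 0.05, 0 by edgeR and 1 by DESeq2), and Cldn4 was at 0 in all libraries. Itga3, also a laminin receptor subunit, had 1978, 312, 2542 and 134 normalized counts across control replicates 1 to 4, and 331, 460.3, 1097, 493 and 74.1 across cKO replicates 1 to 5 (limma log2 fold change -0.91 with SE 0.98, adjusted p = 0.582). The part of these cell types in the values was not tested.

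**Figure D4:**
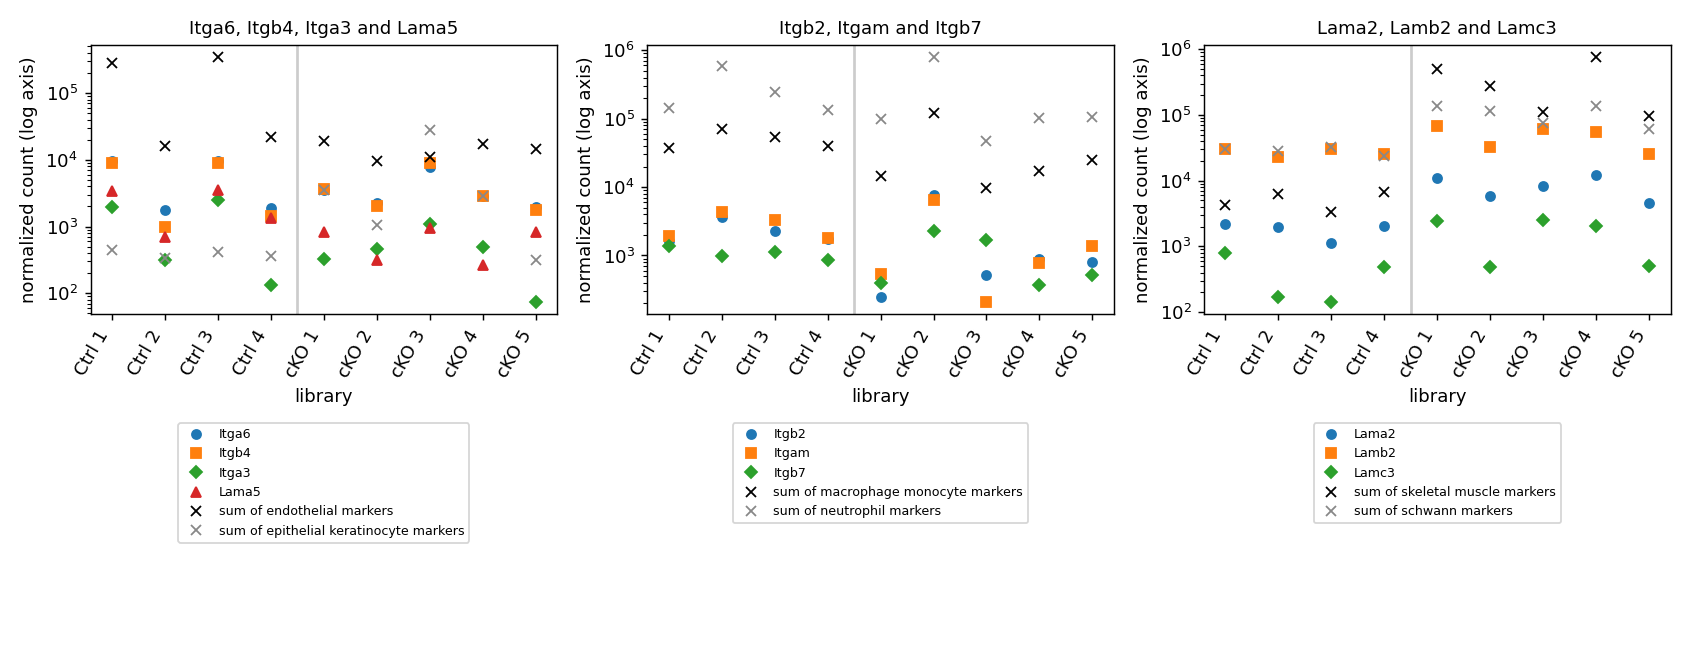
Normalized counts (vertical log axes) of selected members and summed cell type markers (crosses) in each of the 9 libraries, with a grey line between controls and knockouts. Itga6, Itgb4, Itga3 and Lama5 are high with the endothelial markers in control replicates 1 and 3, Itgb2 and Itgam with the macrophage and neutrophil markers in cKO replicate 2, and Lama2, Lamb2 and Lamc3 are shown with muscle and Schwann markers.

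Of the α subunits that bind both matrix and cell-surface ligands, Itga4, the receptor subunit for VCAM1 and fibronectin, had 678, 1128, 1137 and 1649 normalized counts across control replicates 1 to 4, and 475, 552, 155, 573 and 1831 across cKO replicates 1 to 5. The first 4 knockouts lay below all controls and replicate 5 above them (limma log2 fold change -1.04 with SE 0.59, adjusted p = 0.283). Without replicate 5 the log2 fold change was -1.49 with a limma adjusted p of 0.0466 (adjusted p from 0.0466 to 0.69 over the alternatives). Itga9, a receptor subunit for tenascin C and other ligands, had 3575, 705, 2936 and 687 normalized counts across control replicates 1 to 4, and 4041, 2083, 2867, 3252 and 722 across cKO replicates 1 to 5 (limma log2 fold change 0.58 with SE 0.63, adjusted p = 0.587). Its low libraries were control replicates 2 and 4 and cKO replicate 5.

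Leukocyte subunits were detected although the cells were sorted as lineage-negative. Itgb2 had 1613, 3701, 2265 and 1727 normalized counts across control replicates 1 to 4, and 249, 7559, 518, 902 and 804 across cKO replicates 1 to 5. Itgam had 1929, 4384, 3337 and 1776 normalized counts across control replicates 1 to 4, and 536, 6369.5, 209, 773 and 1359 across cKO replicates 1 to 5. Itgb2 encodes the common β chain of leukocyte integrins and Itgam the αM chain of macrophages and neutrophils. cKO replicate 2 was the highest of all libraries for both, and the other 4 knockouts lay below every control. Macrophage and monocyte markers summed to 122110.0 in cKO replicate 2, 37019 to 70169 in controls and 9859 to 24489.6 in the other knockouts, with 1 of 15 past the test. Lyz2 supplied most of this sum in cKO replicate 2 (100129) and in controls (22740 to 56428). The sum there says little about the other markers. Neutrophil markers summed to 800896 in cKO replicate 2, 134203 to 584091 in controls and 46649.5 to 105275 in the other knockouts, with 0 of 12 past the test. Neither subunit passed limma with all libraries (limma log2 fold change -1.23 with SE 0.81, adjusted p = 0.355 for Itgb2, and limma log2 fold change -1.49 with SE 0.81, adjusted p = 0.265 for Itgam). Without cKO replicate 2 the log2 fold change of Itgb2 was -1.99 with a limma adjusted p of 0.0402 (from 0.0402 to 0.907 over the alternatives). Itgal, not a member by the rule, had 473, 1190.5, 1083 and 433 normalized counts across control replicates 1 to 4, and 243, 2411, 0, 363 and 409.9 across cKO replicates 1 to 5 (limma log2 fold change -2.22 with SE 1.83, adjusted p = 0.468). Reads of Itgb2 and its relative Itgb2l may not be fully separable. Itgb2l was highest in cKO replicate 2 (4024), and the other 4 knockouts lay below every control. Itgb7, the partner of α4 and αE, did not pass (limma log2 fold change -0.44 with SE 0.55, adjusted p = 0.64). It had 1362, 977, 1118 and 847 normalized counts across control replicates 1 to 4, and 401, 2246, 1698, 374 and 510 across cKO replicates 1 to 5. T and NK cell markers summed to 458, 1813, 856 and 437, and 469, 2549, 357, 251 and 369, in the same order. Both were highest in cKO replicate 2, but the sum was low in cKO replicate 3, where Itgb7 was high. The part of T and NK cell RNA in the Itgb7 values was not tested. Itgae, the αE gene of intraepithelial lymphocytes, had 31.1, 0, 60.3 and 0 normalized counts across control replicates 1 to 4, and 20.6, 47.1, 21.7, 5.06 and 0 across cKO replicates 1 to 5, with 3 libraries at 0 (limma log2 fold change 0.69 with SE 1.66, adjusted p = 0.822).

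The β1 gene, Itgb1, whose product is the shared partner of most α subunits named here, had the highest level of all members per kilobase. Itgb1 had 64043, 71890.3, 62071 and 75274 normalized counts across control replicates 1 to 4, and 48999.9, 44731, 49741, 45964 and 63147 across cKO replicates 1 to 5. Knockouts 1 to 4 lay below all controls and replicate 5 among them, and the gene did not pass (limma log2 fold change -0.44 with SE 0.15, adjusted p = 0.0889). Without replicate 5 the log2 fold change was -0.53 with a limma adjusted p of 0.0112 (adjusted p from 0.00957 to 0.863 over the alternatives). Itgb5 and Itgb3, β subunits of receptors for vitronectin, had small differences that did not pass. Itgb5 had 25193, 30532, 23319 and 29559 normalized counts across control replicates 1 to 4, and 25544, 19289.6, 25369, 25017 and 27104 across cKO replicates 1 to 5 (limma log2 fold change -0.15 with SE 0.14, adjusted p = 0.515). Itgb3 had 4685 ± 923 (SD, n = 4) in controls, and 4191 ± 635 (SD, n = 5) in the knockout (limma log2 fold change -0.15 with SE 0.16, adjusted p = 0.557).

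Itgb8, the β subunit of an activator of latent TGF-β, was higher in every knockout than in every control. Itgb8 had 139, 212, 51.7 and 199.8 normalized counts across control replicates 1 to 4, and 358, 444, 331, 277 and 291 across cKO replicates 1 to 5. The level was 151 ± 73.4 (SD, n = 4) in controls, and 340.4 ± 66.3 (SD, n = 5) in the knockout, a difference that did not pass (limma log2 fold change 1.34 with SE 0.45, adjusted p = 0.0918, adjusted p from 0.049 to 0.742 over the alternatives). Itgb6, an epithelial activator of latent TGF-β, had no read in any control and was left out of the main fit by the filter. It had 95.7, 2.69, 153, 96.1 and 0 normalized counts in cKO replicates 1 to 5, a mean at least 17.8-fold higher than the level of 3 reads per control, taken as the floor. Without cKO replicate 3, the library with the highest epithelial markers, the bound was 12.5-fold. Epithelial and keratinocyte markers summed to 3490, 1065, 27692, 2829 and 316 across cKO replicates 1 to 5, and 339 to 449 across controls. The 12.5-fold bound thus still includes libraries with such sums above every control, and their part in the Itgb6 values was not tested. Itgax, the αX gene of dendritic cells and macrophages, had 1 read over the controls, and 41.1, 57.8 and 132 normalized counts in cKO replicates 2, 4 and 5, with 0 in replicates 1 and 3. Itgad, the αD gene, had 3 reads in each group.

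**Figure D5:**
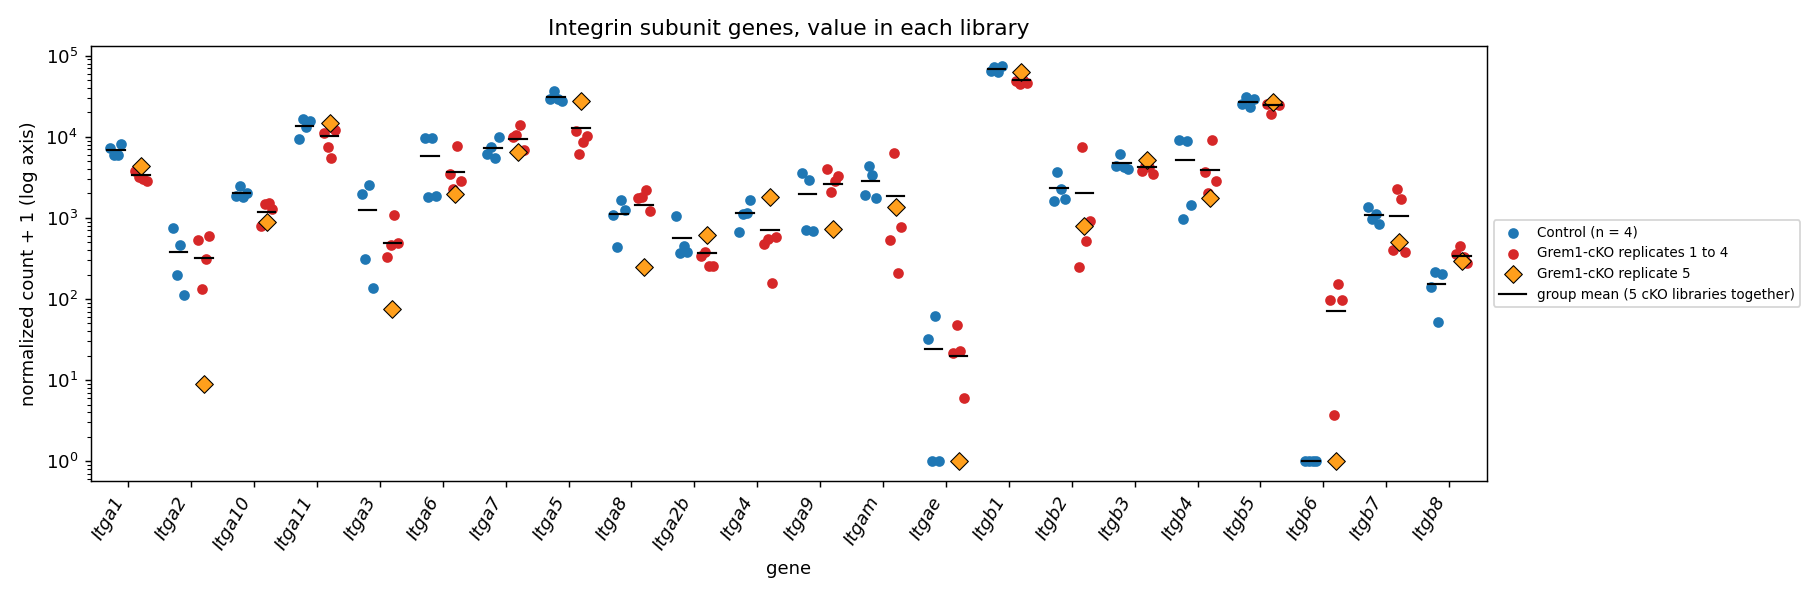
Normalized count + 1 (vertical log axis) of 22 integrin subunit genes in each library, with blue points for the 4 controls, red points for cKO replicates 1 to 4, orange diamonds for cKO replicate 5 and black lines for group means. Itga5, Itgb1 and Itga4 show cKO replicate 5 apart from the other knockouts, and Itga1 and Itga10 show it with them.

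The partners of these subunits were counted from 4 further lists, to be read against 4.61% of all genes higher, 2.87% lower and a median of -0.0039. Of 21 basement membrane genes tested, other than laminins, 8 fell and 1 rose (median log2 fold change -0.64). Nid2 (nidogen 2, a laminin-binding linker) was 3.37-fold lower (limma adjusted p = 0.00105). Tinagl1 was 2.87-fold lower, Col18a1 (collagen XVIII) 4.68-fold and Pxdn (peroxidasin, which crosslinks collagen IV) 4.31-fold, with limma adjusted p of 0.0176, 0.0204 and 0.0218. Endothelial marker sums, given above, were high in control replicates 1 and 3. Across control replicates 1 to 4, Tinagl1 had 19107, 7558, 18716 and 11679 normalized counts, and Col18a1 85745, 48293, 86959.5 and 75337. In the same order Nid2 had 32368, 24779, 24739 and 24931, and Pxdn 36758, 39768, 37904 and 38502. The part of endothelial RNA in these values was not tested. Col18a1 in cKO replicate 5 (48482) lay within the control range. Without cKO replicate 5, 4 of the 21 were higher and 10 lower, and without control replicates 1 and 3 together 1 was higher and 1 lower. Col4a4 was the gene that rose with all libraries (5.77-fold, limma adjusted p = 0.0446).

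Non-integrin laminin receptors and their partners had 3 higher and 1 lower of 21 (median 0.01). Dmd (dystrophin) rose 3.38-fold, Sgca (α-sarcoglycan, a muscle gene) 10.1-fold and Dag1 (dystroglycan, the laminin α2 receptor) 2.6-fold, with limma adjusted p of 0.0121, 0.0211 and 0.0437. These belong to the dystrophin complex of muscle. Across cKO replicates 1 to 5, Dag1 had 58959.5, 93628.5, 106439, 48116 and 27315 normalized counts. In the same order Dmd had 4121, 4022, 6609, 4195 and 2023, and Sgca 1504.5, 1549, 1862, 1103 and 198. Each was highest in replicate 3 and lowest in replicate 5. The muscle marker sums given above were highest in replicate 4 and lowest in replicate 5. The part of muscle RNA in these values was not tested. Sdc3 (syndecan 3) was 1.97-fold lower (limma adjusted p = 0.0213). Without cKO replicate 5 the counts were 6 higher and 3 lower, and 1 call, higher, was left without control replicates 1 and 3. In cKO replicate 5, Dag1 stood at 27315, against 23062 ± 1347 (SD, n = 4) in controls and 66892 ± 32637 (SD, n = 5) in cKO libraries.

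Of 32 cytoplasmic and membrane partners of integrins tested, 5 fell and 1 rose (median 0.04). Tln1 (talin, which activates integrins by binding the β tail) was 1.5-fold lower, Tns3 (tensin 3) 2.06-fold, Bcar1 (p130Cas) 1.87-fold and Actn1 (α-actinin 1) 3.00-fold, with limma adjusted p of 0.027, 0.0176, 0.026 and 0.0352. Actn1 in cKO replicate 5 (4118) lay within the control range (4015 to 5402). Cd47 rose 1.36-fold (limma adjusted p = 0.0472). Among 23 integrin ligands tested 5 fell and 1 rose (median -1.05). Mfge8 was 2.52-fold lower, Emilin1 2.87-fold and Edil3 10-fold, with limma adjusted p of 0.0052, 0.0293 and 0.0355, and Thbs1 was lower as well (limma adjusted p = 0.0083). Cartilage marker sums, given above, were lower in the knockouts with replicate 5 nearest to the controls, and their part in the ligand values was not tested. Vtn (vitronectin) rose 6.28-fold (limma adjusted p = 0.019). In cKO replicate 5 Vtn stood at 2518, within the control range (868 to 2616). Edil3 stood at 14011 in that library, also within its control range (10311 to 22719). Without cKO replicate 5 the cytoplasmic and membrane partners had 5 higher and 8 lower, and the ligands 1 higher and 10 lower. Without control replicates 1 and 3 the calls among these partners were lost, and 2 ligands were lower.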

How the data were processed

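Paired-end RNA-seq with reads of 150 bases was run on 9 libraries. The authors deposited normalized counts (a signal: each library's gene counts scaled by its own size factor) and a table of their own comparison, whose columns per the file headers are a mean signal, a log2 fold change with its standard error, a score (statistic) and p-values. STAR, featureCounts, DESeq2 and build mm39 are named in the submitters' processing notes. The sources used here give no annotation or strand setting, so overlapping, antisense and closely related genes cannot be told apart with certainty.

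Members were matched by the symbols of the authors' table, and other symbols came from a RefSeq table (GRCm38.p6), which matched 25275 of 27179 IDs. Exon lengths are the union of GENCODE M21 exons. Whole reads were recovered by dividing by the smallest value above 0 in each library, with at least 99.99% of values whole (tolerance 0.01 of a read). Intervals and floors cover counting error only. The test was limma 3.58.1 (R 4.3.3, trend) on the log2 scale with a pseudocount of 1 and only genotype in the model, two-sided, on 15832 genes, tested on simulated data. Among the alternatives, recovered reads were tested with edgeR 4.0.16 and with DESeq2 1.42.0. Members are named, with every library's value for those past the test, without overlap or most abundant in their role. From partner lists, up to 4 passing genes in each direction were named, by p. Members and lists were chosen with earlier results of these data known. 1 integrin α gene, left out by the rule, and the values of 1 member are not reported here.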

Additional observations from a re-analysis of the deposited data

Results flagged for a closer look

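Among 64 groups of members examined (32 members, each in 4 controls and 5 knockouts, on the log2 scale), 6 had a highest or lowest library whose gap to the next, divided by the whole range, passed Dixon's 95% critical value. Chance flags about 1 in 20. cKO replicate 5 was the lowest knockout for Itga8 (ratio 0.73) and Lamb3 (0.794). cKO replicate 2 was the lowest knockout for Itgb5 (0.764) and the only one with reads of Lama1 (1.0, the ratio that any value above 0 gives when the others are at 0). In controls, replicate 3 was the lowest for Lama2 (0.833) and replicate 2 the highest for Itgb3 (0.835).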

How the results depend on the processing

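Members called higher numbered 1 and lower 3 (all genes 1184). With pseudocounts of 0.5 or 5, TMM or upper-quartile scaling and robust eBayes the same 4 members were called, and no filter or a filter of 50 kept 3 of them. Other settings moved the counts of members higher and lower and of all genes: edgeR to 1, 1 and 786, DESeq2 to 4, 7 and 2546, and library quality weights to 3, 7 and 4056. Leaving out 1 library gave 1 to 3, 1 to 8 and 377 to 3562. Leaving out control replicates 1 and 3 gave 1, 0 and 338, and leaving out cKO replicate 2 as well gave 0, 0 and 81 (13 members at an unadjusted p under 0.05). With cKO replicate 5 as the only knockout, assumed to vary like the controls, they were 0, 0 and 83 (8 members unadjusted). Grem1 missed the threshold in these last 3 settings (log2 fold change -2.36, -2.15 and -3.16). Same-numbered libraries did not deviate together (correlations of 0.0705, 0.0171, -0.00621 and -0.0109, none best with its own number). Whether a shared number marks a pair is not stated, and these correlations, taken over all genes tested, cannot settle it. The replicate block gave 3, 7 and 2715 calls, and cKO replicate 5, which shares no number with a control, drops out of it.

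Of the 32 members 16 kept their direction in every setting. None of the other 16 passed in the main limma fit, though Lamb2 did with the replicate block. The log2 fold changes of the other sign among these 16 were as follows. With cKO replicate 5 as the only knockout, these were Itga4 0.74, Itga9 -1.06, Itga2b 0.27, Itga8 -2.02, Itga11 0.17, Itga7 -0.12, Itgae -2.74, Itgb3 0.15, Itgb5 0.0064, Lama3 -5.63 and Lamb2 -0.11. With library quality weights, these were Itga2 0.42 and Itgb4 0.38. With the replicate block, these were Itga2 0.20, Itgb4 0.19 and Lamb3 0.34. Without Control replicates 1 and 3 together, these were Itga2 0.14, Itga3 0.82, Itga6 0.82 and Itgb4 1.43. Without Control replicates 1 and 3 and Grem1-cKO replicate 2 together, these were Itga2 0.22, Itga3 0.73, Itga6 0.94 and Itgb4 1.59. With edgeR, this was Itgae -0.29. With DESeq2, this was Itgae -0.27. Over the settings without 1 library the ranges were Itga8 -0.18 to 0.78, Itga2 -1.32 to 0.20, Itga6 -0.79 to 0.0222, Itgae -0.22 to 1.76, Itgb4 -0.61 to 0.46, Lama3 -1.45 to 1.94 and Lamb3 -1.86 to 0.34. The causes were not tested. Depth limits Lama1, Itgae, Itgax, Itgad and Itgb6 most, which had few reads.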
